A study of Mus musculus with 12 samples.

Results

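The genes described here are 8 complement genes chosen by name: the components C3, C2, C4b and Cfb, the anaphylatoxin receptors C3ar1 and C5ar1, the C1 inhibitor gene Serping1 and the decay-accelerating factor gene Cd55. The arrays carried 11 probes for them among 41174 gene probes, and 7 of the 8 genes were among the 23747 genes tested. Of all genes tested, 14664 had a gene name, and each accession without one was counted as a gene. Of the 7 complement genes tested, 5 were well above background on all 12 arrays, Serping1 on 11 and C3ar1 on 10. C5ar1 was not tested, because its probe was not well above background on all 3 arrays of any group.

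Complement is a cascade of plasma and tissue proteins that tags microbes and damaged cells for uptake. It is started by antibody, by sugar patterns or by spontaneous turnover of C3, and every route meets at the cleavage of C3 by a convertase. The small fragments released on the way, C3a and C5a, draw in and activate leukocytes through their own receptors, and host cells protect themselves with inhibitors in plasma and on the cell surface. In the intestine, epithelial and stromal cells make several components locally, beside the supply from the liver.

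Colon mucosa was scraped from 12 C57BL/6 bone marrow chimeras, 1 colon per array, in 4 groups of 3 mice. All recipients were wild type, so only donor marrow-derived cells could lack Muc1 in mice given Muc1 KO marrow; the labels used here state neither how the recipients were prepared nor how far donor cells replaced theirs. KO_AOMDSS mice received Muc1 KO marrow and were treated, KO_untreated mice received the same marrow and no treatment, and WT_AOMDSS and WT_untreated mice received wild-type marrow with and without treatment. Treatment was azoxymethane (AOM, a colon carcinogen, 12.5 mg/kg into the peritoneum) followed after 5 days by dextran sodium sulfate (DSS, which injures the colon lining) in the drinking water, in 2 rounds of 2% for 4 days with 14 days of plain water after each, then 2.5% for 5 days, and the colon was taken 1 day later. The arrays were single-colour Agilent mouse arrays, and each value below is a log2 signal relative to the 75th percentile of its array, so that an increase of 1 is a doubling of signal.

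The 75th percentile of signal ran from 332 to 767.8 on 11 arrays and was 153.2 on the WT_AOMDSS 3 array, and between 58.44% and 78.72% of gene spots were well above background. The arrays lay on 3 slides that were nearly aligned with treatment. The WT_untreated mice shared slide 1 with KO_untreated 1, slide 2 held KO_AOMDSS 3, KO_untreated 2 and 3 and WT_AOMDSS 3, and slide 3 held the other 4 treated mice. Slide 3 was scanned on an earlier day than slides 1 and 2. Its arrays had 496 to 781 spots flagged as non-uniform, against 4 to 52 on the arrays of slides 1 and 2. Epithelial markers were well above background on every array (6 of 6 genes), and the label gives colon mucosa. Muc1 itself stood at -2.30, -0.99 and -2.41 in KO_AOMDSS mice and -2.12, -2.90 and -3.80 in KO_untreated mice, against -2.17, -1.47 and -3.53 in WT_AOMDSS mice and -1.5, -1.72 and -2.25 in WT_untreated mice, and it passed the test in neither comparison of the marrows (adjusted p = 1 in treated and 0.425 in untreated mice). A second, dimmer Muc1 probe ran the other way in untreated mice, at -3.66 ± 0.38 in KO_untreated against -4.87 ± 1.01 in WT_untreated mice, and stood at -2.08 ± 0.77 in KO_AOMDSS against -3.27 ± 2.51 in WT_AOMDSS mice (SD, n = 3 each). Neither probe checks the marrow labels in a tissue whose epithelium came from the wild-type host. WT_AOMDSS 2 and WT_untreated 2 stood apart in markers of other tissue layers: the mean of 4 smooth muscle genes, less its mean over the 12 arrays, was 4.98 in WT_AOMDSS 2 and 2.04 in WT_untreated 2, against -1.43 to 0.09 on the other 10 arrays, and adipocyte genes stood at 4.73 in WT_untreated 2.

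The promoter of C3, the gene with the largest treatment difference among the 8, is shown beside that of Cd55, which did not pass the test. Cd55 differed by 0.41 ± 0.27 (SE) for the mean over both marrows and by 0.92 ± 0.38 with KO marrow. C3ar1, whose match is given below, differed less for the mean, by 0.17 ± 0.52. The RefSeq promoter table (GRCm38.p6) held 4 of the 8 genes, with 250 bases before and 50 after the annotated start, on the minus strand at chr17:57228087-57228386 for C3 and chr1:130462695-130462994 for Cd55. Capitals mark matches on either strand to TTGCNNAA (a C/EBP core), TTCNNNGAA (a STAT core), the NF-kB consensus or TATAAA.
C3: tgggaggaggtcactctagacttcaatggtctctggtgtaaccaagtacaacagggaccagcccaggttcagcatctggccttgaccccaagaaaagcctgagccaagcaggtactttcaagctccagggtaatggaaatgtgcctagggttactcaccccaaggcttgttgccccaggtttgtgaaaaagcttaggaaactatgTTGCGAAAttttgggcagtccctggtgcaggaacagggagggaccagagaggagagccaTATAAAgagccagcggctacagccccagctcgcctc
Cd55: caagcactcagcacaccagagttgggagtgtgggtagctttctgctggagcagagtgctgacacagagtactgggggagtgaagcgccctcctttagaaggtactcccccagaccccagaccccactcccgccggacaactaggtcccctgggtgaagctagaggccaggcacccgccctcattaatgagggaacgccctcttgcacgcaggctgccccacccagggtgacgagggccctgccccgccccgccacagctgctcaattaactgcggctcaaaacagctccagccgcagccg
C3 held TTGCGAAA from position -45 and TATAAA from position 15, counted from the annotated start. Cd55 and C5ar1 held no match, and C3ar1 held TATAAA from position -235. Of 32851 mouse promoters of this length, 10.8% held TTGCNNAA, 8.3% TTCNNNGAA, 8.46% the NF-kB consensus and 13.6% TATAAA. The matches describe letters in these windows and show no binding.

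C3, the component on which all routes converge, was the gene that passed the test after treatment, 1 of 7 tested with KO marrow (3.15% of all genes were called there) and 1 of 7 for the mean over both marrows (21% of all genes). Its level was 3.71, 4.56 and 3.92 in KO_AOMDSS mice, against 0.47, 1.39 and 0.77 in KO_untreated mice. Every treated mouse with KO marrow lay above every untreated one, and the difference of 3.18 ± 0.76 (SE, n = 3 each) was 9.09-fold (adjusted p = 0.04, limma). With WT marrow, C3 stood at 4.41, 6.06 and 3.38 in WT_AOMDSS mice, against 1.30, 4.26 and 1.12 in WT_untreated mice. WT_untreated 2 lay inside the treated range, and the difference of 2.39 ± 0.76, or 5.23-fold, missed the threshold (adjusted p = 0.0539). Averaged over the marrows, C3 rose by 2.79 ± 0.54, or 6.90-fold (adjusted p = 0.0049). In bulk mucosa, a change in the number of cells of a type and a change in RNA per cell cannot be told apart.

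**Figure D1:**
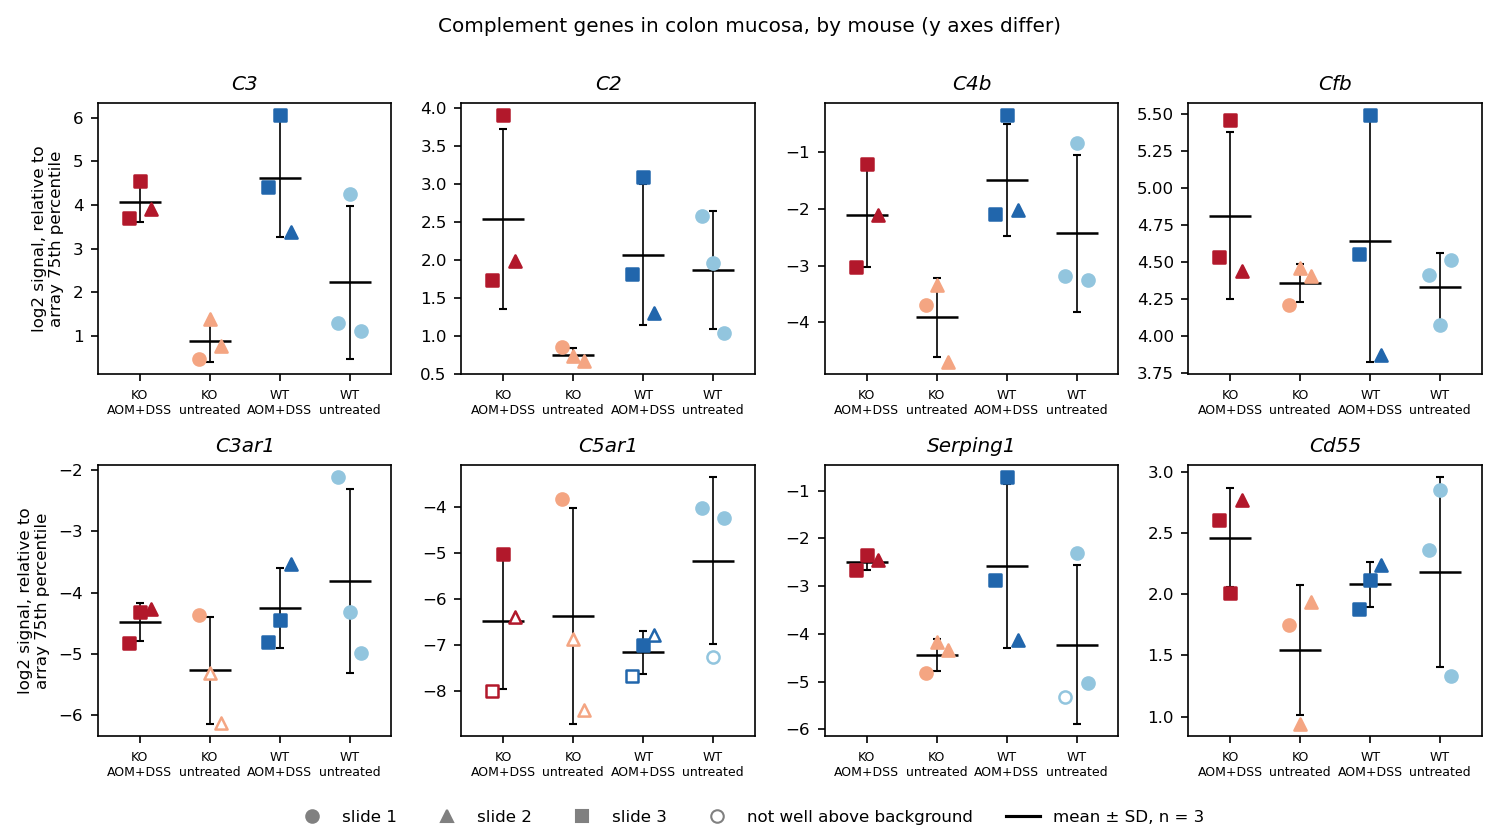
Log2 signal of the 8 complement genes in each mouse, relative to the 75th percentile of its array, for the 4 groups (KO and WT name the marrow donor); point shapes give the slide, open points were not well above background, and lines with bars give the mean ± SD (n = 3). C3 in KO_AOMDSS mice sits between 3.71 and 4.56, above all KO_untreated mice (0.47 to 1.39), while among WT_untreated mice 1 point at 4.26 sits with the treated mice.

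With single mice left out, the C3 difference with WT marrow ran from 1.67 to 3.41 (adjusted p from 0.011 to 0.187). It was 3.41 (adjusted p = 0.0151) without WT_untreated 2, the mouse with high adipocyte and smooth muscle genes, and 3.01 (adjusted p = 0.011) without WT_AOMDSS 3, and it was 1.92 (adjusted p = 0.187) without WT_untreated 1, 1.83 (adjusted p = 0.153) without WT_untreated 3 and 1.67 (adjusted p = 0.168) without WT_AOMDSS 2. With KO marrow the difference stayed between 2.94 and 3.44 whichever mouse was left out, while the call was lost, with adjusted p up to 0.147, without any of the 6 mice of that comparison or without WT_AOMDSS 1. With slide as a block the differences were 2.29 ± 0.98 with KO marrow (adjusted p = 0.154), 1.09 ± 1.44 with WT marrow (adjusted p = 0.707) and 1.69 ± 1.05 for the mean (adjusted p = 0.301). Within slide 2, which held KO mice of both kinds, 1 treated mouse stood 2.84 above the mean of 2 untreated ones, a value given without a test because 1 mouse has no spread of its own.

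A second, dimmer C3 probe did not follow the first. It was well above background on 8 of 12 arrays and differed by 0.35 ± 0.69 with KO marrow and -1.14 ± 0.69 with WT marrow. Averaging both probes gave C3 a treatment difference of 1.77 with KO marrow (adjusted p = 0.13) and 0.62 with WT marrow (adjusted p = 0.458). In the authors' deposited table of log2 group means, where C3 and Serping1 were the 2 of these genes present, the brighter C3 probe stood at 0.52 for KO_AOMDSS, -2.68 for KO_untreated, 1.08 for WT_AOMDSS and -1.33 for WT_untreated mice.

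C2 and C4b, which together form the C3 convertase of the classical and lectin routes, did not pass the test, but with KO marrow both were higher in every treated than in every untreated mouse, as 10.8% of all genes were. C2 stood at 1.73, 3.90 and 1.98 in KO_AOMDSS mice, against 0.85, 0.73 and 0.67 in KO_untreated mice, a difference of 1.79 ± 0.57 (adjusted p = 0.136). With WT marrow the groups overlapped, at 1.81, 3.09 and 1.30 in WT_AOMDSS mice against 2.58, 1.96 and 1.04 in WT_untreated mice. The C2 difference there was 0.21 ± 0.57 (adjusted p = 0.826), and it turned to -0.30 with slide as a block. A second C2 probe, well above background on all 12 arrays, gave 1.96 ± 0.66 with KO marrow and 0.80 ± 0.66 with WT marrow, again short of the threshold (adjusted p = 0.167 and 0.433).

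C4b was at -3.03, -1.20 and -2.10 in KO_AOMDSS mice, against -3.69, -3.35 and -4.70 in KO_untreated mice. Its difference was 1.81 ± 0.73 (adjusted p = 0.262). In WT_AOMDSS mice it was at -2.09, -0.34 and -2.02, against -3.19, -0.83 and -3.26 in WT_untreated mice, where replicate 2 again stood among the treated values, and the difference was 0.94 ± 0.73 (adjusted p = 0.391). C4b has a near-identical copy, C4a, whose own probe was well above background on 2 arrays only, and what either probe takes up from the other's transcript is uncertain. Over both marrows C4b differed by 1.37 ± 0.52 (adjusted p = 0.0726), and with single mice left out it ran from 1.09 to 1.77 (adjusted p from 0.0294 to 0.159). It passed the test without WT_untreated 2 (1.77, adjusted p = 0.0294) and without WT_AOMDSS 3 (1.51, adjusted p = 0.0414), and not without any other single mouse.

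Cfb, which supplies the catalytic subunit of the alternative route's convertase, did not pass the test. It stood at 4.53, 5.46 and 4.44 in KO_AOMDSS mice, against 4.21, 4.46 and 4.40 in KO_untreated mice, and at 4.55, 5.49 and 3.87 in WT_AOMDSS mice, against 4.41, 4.07 and 4.51 in WT_untreated mice. The groups overlapped with both marrows, and replicate 2 was the highest of each treated group. The difference was 0.45 ± 0.37 with KO marrow (95% interval -0.35 to 1.25) and 0.31 ± 0.37 with WT marrow (95% interval -0.50 to 1.11), and it turned to -0.19 and -0.49 with slide as a block. Cfb and C2 neighbour each other in the RefSeq gene table, and among pairs of the 7 tested genes they had the smallest root mean square difference over the 12 arrays, 0.69. This measure favours genes that vary little, and the spread of Cfb itself was 0.46, against 0.95 for C2.

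Both anaphylatoxin receptors were dim. C3ar1, the receptor for C3a, stood at -4.83, -4.32 and -4.27 in KO_AOMDSS mice, against -4.37, -5.31 and -6.12 in KO_untreated mice, where it was well above background in 1 of 3. With WT marrow it was at -4.80, -4.44 and -3.53 in WT_AOMDSS mice, against -2.12, -4.31 and -4.99 in WT_untreated mice. Neither difference passed the test, at 0.80 ± 0.74 with KO marrow (adjusted p = 0.7) and -0.45 ± 0.74 with WT marrow (adjusted p = 0.702), and the difference with WT marrow became 1.36 with slide as a block and 1.05 with another background correction. A second C3ar1 probe was well above background on 2 of 12 arrays. When all probes were fitted, it differed by 1.12 ± 0.77 with KO marrow and 0.48 ± 0.77 with WT marrow.

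C5ar1, the main C5a receptor of neutrophils and macrophages, was well above background on 5 of 12 arrays. Its probe read -7.99, -5.03 and -6.40 in KO_AOMDSS mice and -3.83, -6.88 and -8.42 in KO_untreated mice, against -7.68, -7.01 and -6.79 in WT_AOMDSS mice and -4.02, -7.26 and -4.24 in WT_untreated mice. The groups overlapped with both marrows, and no group had the probe well above background on all of its arrays. In a fit of all probes, treatment differed by -0.09 ± 1.16 with KO marrow and -1.98 ± 1.16 with WT marrow (adjusted p = 0.984 and 0.307).

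Serping1 encodes the C1 inhibitor, which blocks the proteases C1r and C1s, and it followed C3 most closely of the other 6 tested genes, with a root mean square difference of 0.72 over the 12 arrays. It stood at -2.67, -2.35 and -2.45 in KO_AOMDSS mice, against -4.81, -4.16 and -4.34 in KO_untreated mice. Those groups did not overlap, and the difference was 1.95 ± 0.86, or 3.85-fold (adjusted p = 0.313). In WT_AOMDSS mice it was at -2.88, -0.72 and -4.12, against -5.33, -2.31 and -5.03 in WT_untreated mice. There replicate 2 was the highest of both groups, and the difference was 1.65 ± 0.86 (adjusted p = 0.2).

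For the mean over both marrows, Serping1 lay just beyond the threshold, at 1.80 ± 0.61 (adjusted p = 0.0518). With single mice left out it ran from 1.33 to 2.27 (adjusted p from 0.00943 to 0.12). It passed the test without WT_untreated 2 (2.27, adjusted p = 0.0199) and without WT_AOMDSS 3 (2.18, adjusted p = 0.00943), and not without any other single mouse, for example 1.52 without WT_untreated 1 (adjusted p = 0.12). It was at 1.81 without both mice high in smooth muscle genes (adjusted p = 0.0176) and at 0.67 with slide as a block (adjusted p = 0.714). Leaving out both of those mice gave C3 differences of 3.18 with KO marrow (adjusted p = 0.00117) and 2.69 with WT marrow (adjusted p = 0.0175).

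Cd55 encodes decay-accelerating factor, a membrane protein that takes C3 convertases apart on host cells. It stood at 2.61, 2.01 and 2.77 in KO_AOMDSS mice, against 1.75, 0.94 and 1.94 in KO_untreated mice, which did not overlap. The difference was 0.92 ± 0.38 (adjusted p = 0.273). With WT marrow it was at 1.88, 2.12 and 2.24 in WT_AOMDSS mice, against 2.36, 2.85 and 1.33 in WT_untreated mice, and the difference was -0.10 ± 0.38 (95% interval -0.92 to 0.72). The sign with WT marrow turned, to 0.44, with slide as a block. Its near copy Cd55b differed by 1.19 ± 0.64 with KO marrow and -0.98 ± 0.64 with WT marrow (adjusted p = 0.442 and 0.306), and the 2 probes may share transcripts.

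Counted together, 1 of the 7 tested genes was called with KO marrow, against 3.15% of all 23747 genes (1.85% higher). With WT marrow 0 of 7 were called, against 13.8% of all genes, with 1 of 7 at an unadjusted p under 0.05, against 33% of all genes. For the mean over both marrows 1 of 7 was called, against 21% of all genes (7.55% higher), and 4 of 7 had an unadjusted p under 0.05, against 38% of all genes. The median difference of the 7 genes was 1.79 with KO marrow, 0.31 with WT marrow and 1.00 for the mean, against -0.111, -0.244 and -0.193 over all genes. With KO marrow, 5 of 7 had all treated mice above all untreated ones, against 10.8% of all genes, and with WT marrow 0 of 7 had, against 10.6%. With slide as a block 0 of 7 were called with either marrow or for the mean, where 7.26% (KO), 0.535% (WT) and 6.2% (mean) of all genes were.

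**Figure D2:**
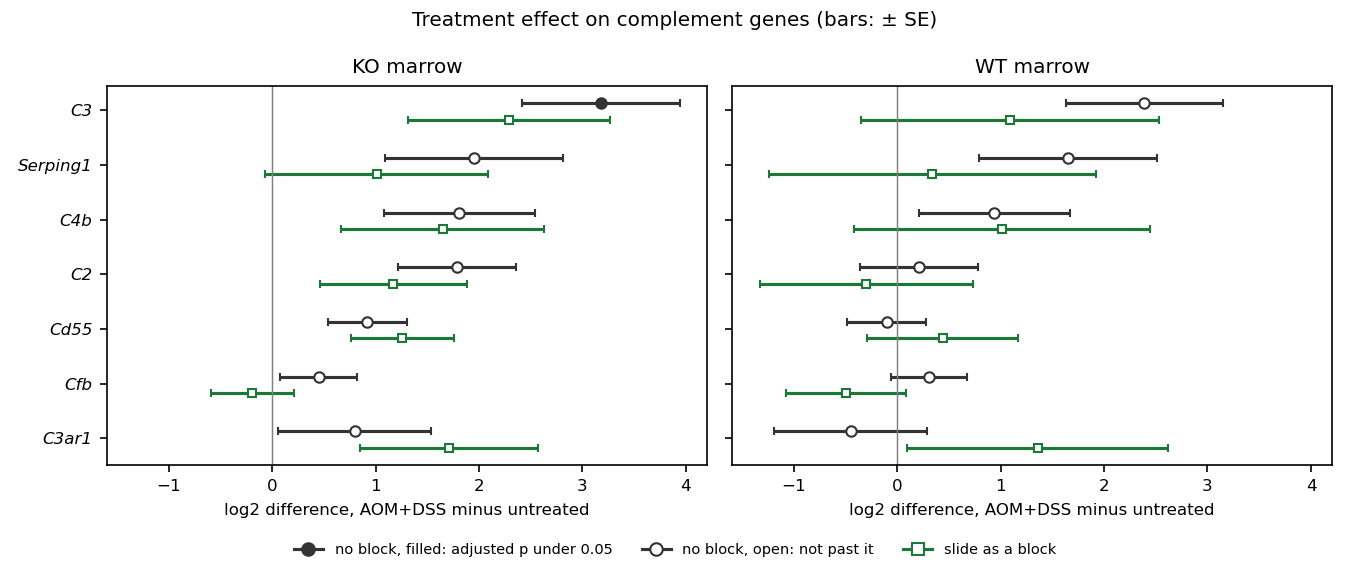
Treatment difference (log2, AOM+DSS minus untreated) of the 7 tested complement genes with KO and WT marrow, with bars of ± SE; circles are the fit of 12 arrays without a block, filled where the adjusted p was under 0.05, and squares the same fit with slide as a block. C3 with KO marrow is the 1 filled point, at 3.18, and its square is at 2.29.

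The slide block, and other ways of scaling, moved the whole array as well as these genes. The median of all genes for the mean over both marrows was -0.193 with 75th percentile scaling, 0.456 with slide as a block, -0.062 with quantile normalization and 0.309 with normexp background correction. Relative to that median, C3 was higher by 2.98 with 75th percentile scaling, 1.23 with slide as a block, 2.84 with quantile normalization and 2.08 with normexp. Cfb was at 0.57, -0.80, 0.49 and -0.06 under the same 4 settings, so its direction depended on the setting. Serping1 stayed above the median, at 1.99, 0.22, 2.16 and 0.96, as did C4b, at 1.57, 0.87, 1.62 and 0.83. C2 was at 1.19, -0.02, 1.03 and 0.51, C3ar1 at 0.37, 1.08, 0.65 and 0.51, and Cd55 at 0.60, 0.39, 0.42 and 0.01.

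KO marrow was then set against WT marrow. In treated mice 0 of 7 genes were called, against 0% of all genes (the lowest adjusted p of any of the 7 was 1), with 0 of the 7 and 231 of all genes at an unadjusted p under 0.05. The differences lay between -0.62 ± 0.73 for C4b and 0.47 ± 0.57 for C2, and C3 differed by -0.55 ± 0.76 (95% interval -2.20 to 1.10). Serping1 differed by 1.67 between the 1 KO_AOMDSS and 1 WT_AOMDSS mouse of slide 2, given without a test, and by -0.71 within slide 3 (adjusted p = 0.982). In untreated mice 0 of 7 were again called, against 0% of all genes, with 0 of the 7 and 2911 of all genes at an unadjusted p under 0.05. C2 and C4b lay lower in every KO_untreated than in every WT_untreated mouse, with differences of -1.11 ± 0.57 and -1.49 ± 0.73 (adjusted p = 0.421 and 0.41), where 6.75% of all genes lay lower in the same way. C3 and C3ar1 differed by -1.35 ± 0.76 and -1.46 ± 0.74 there, and without WT_untreated 2 the C4b difference was -0.69 (adjusted p = 0.861).

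The treatment difference itself was compared between the marrows. It was larger with KO marrow by 0.14 to 1.58 in all 7 genes, and 0 of 7 passed the test, against 0% of all genes (lowest adjusted p = 0.897), with 0 of the 7 and 829 of all genes at an unadjusted p under 0.05. The C2 and Cd55 values were 1.58 ± 0.81 (95% interval -0.18 to 3.33) and 1.02 ± 0.54 (95% interval -0.13 to 2.18). The C3 value was 0.80 ± 1.08 (95% interval -1.54 to 3.13). The median of all genes in this comparison was 0.176.

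Markers of other cells moved with treatment beside these genes. Fibroblast markers (6 genes, mean log2 value less its mean over 12 arrays) ran from 0.99 to 1.90 in KO_AOMDSS mice, against -1.71 to -0.99 in KO_untreated mice, and from -0.08 to 1.95 in WT_AOMDSS mice, against -1.44 to 0.80 in WT_untreated mice. Their highest untreated value was WT_untreated 2, the mouse with high C3, C4b and Serping1, and 5 of 6 rose for the mean over both marrows. On each array 4 to 6 of these 6 genes were well above background. Monocyte and macrophage markers (9 genes) ran from 0.62 to 1.05 in KO_AOMDSS mice against -1.75 to -0.61 in KO_untreated mice, and from 0.38 to 1.18 in WT_AOMDSS mice against -0.99 to 0.23 in WT_untreated mice, and 7 of 8 tested rose. Neutrophil markers (9 genes) ran from 0.90 to 3.42 in KO_AOMDSS mice against -2.97 to -2.26 in KO_untreated mice, and from 1.88 to 3.47 in WT_AOMDSS mice against -2.65 to -1.43 in WT_untreated mice, and 8 of 8 tested rose. Of those 8, 6 passed the filter through treated groups alone, and 1 to 3 of the 9 were well above background on any untreated array, so the untreated levels lie near background. Of 6 epithelial markers 0 passed the test, and 5 of 5 absorptive colonocyte markers fell. The part of these cells in the complement differences was not tested.

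**Figure D3:**
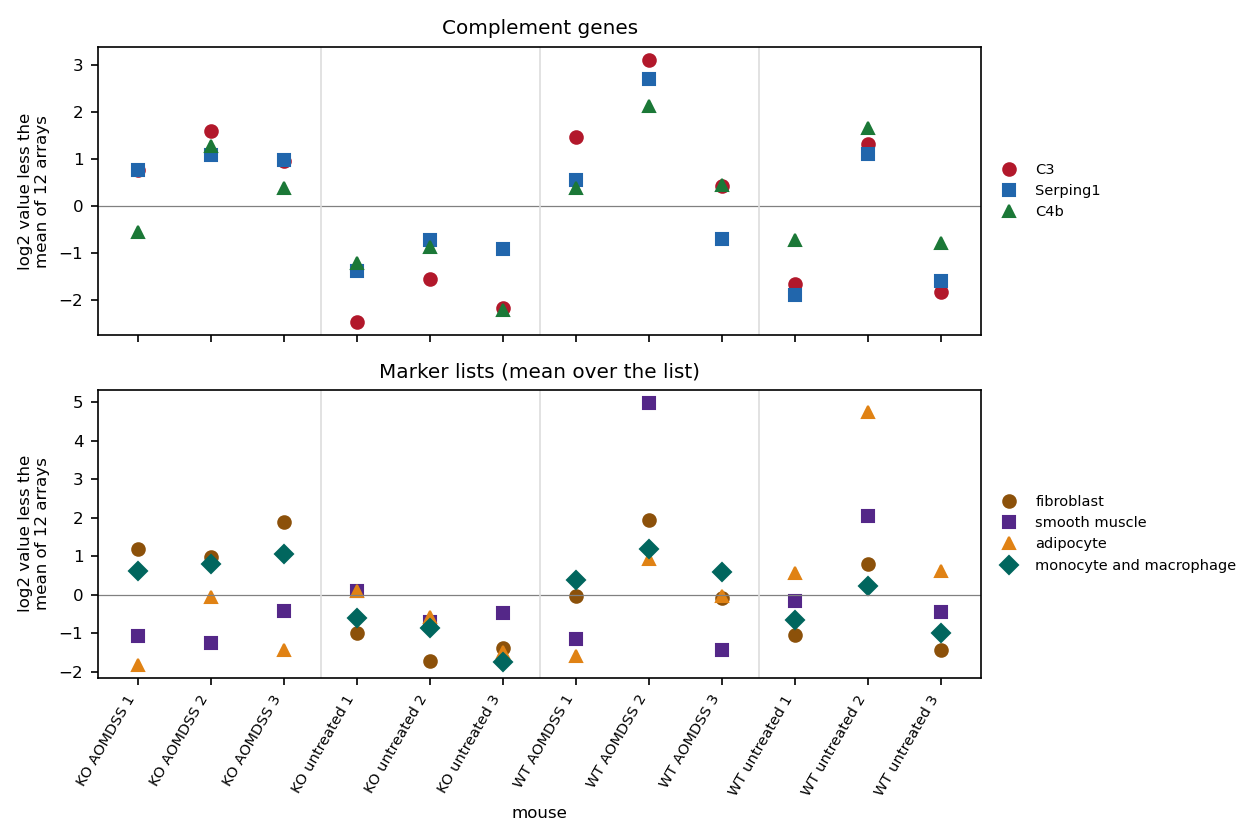
Log2 values of C3, Serping1 and C4b (upper panel) and of 4 marker lists (lower panel) in each of the 12 mice, less their mean over the 12 arrays. WT AOMDSS 2 and WT untreated 2 are high for all 3 genes and for smooth muscle genes (4.98 and 2.04), and WT untreated 2 for adipocyte genes (4.73).

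The profiles nearest to each gene over the 12 arrays were searched among 13389 named genes, by the root mean square difference of log2 values less their means. For C3, whose own spread was 1.76, they were Rgs1 (0.53), Rhoj (0.53) and C1s1 (0.64), of which C1s1 encodes the protease C1s of the classical route. For Serping1 (spread 1.34) they were Dpt (0.40), Gpx3 (0.42) and Col4a2 (0.51), the first encoding the matrix protein dermatopontin and the last a basement membrane collagen. For C4b (spread 1.23) they were Thy1 (0.53), Gypc (0.56) and Grap (0.58). For C2 (spread 0.95) they were Fam20c, Gzmb and Rbm24 at 0.51, 0.51 and 0.52. The other 3 genes had Prnp (0.23), Rbp4 (0.32) and Alg9 (0.32) for Cd55 with a spread of 0.54, Cyba (0.25), Tln1 (0.26) and Cilk1 (0.26) for Cfb with a spread of 0.46, and Plxdc1 (0.40), Col11a2 (0.48) and Cd8a (0.50) for C3ar1 with a spread of 0.93. These distances share the same arrays and slides and describe likeness only.

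Of 41 further complement genes, 34 were tested, of which 21 were well above background on all 12 arrays. With KO marrow 6 rose and 0 fell, against 1.85% and 1.31% of all genes, and with WT marrow the same 6 rose and 6 fell, against 3.61% and 10.2% of all genes. The 6 that rose with both were C1qa, C1qc, C1s1, C5ar2, Itgam and Itgax. For the mean over both marrows 9 rose and 9 fell, against 7.55% and 13.5% of all genes, and the median of the 34 was -0.26, against -0.193 for all genes. Of the 9 that rose, 8 were well above background on all 12 arrays, and C1s1 passed the filter only through the treated groups, where it was high. Of the 9 that fell, 4 (Colec11, Masp1, Cd59b and Vsig4) passed it only through WT_untreated mice, where they were highest. The place of C1s1 and of these 4 among the tested genes depended on those levels. In every comparison of the marrows and in the difference of treatment effects 0 of 34 were called.

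Among initiators, 3 of 12 rose and 3 fell for the mean over both marrows, against 7.55% and 13.5% of all genes. C1s1 stood at -1.87, -2.50 and -1.10 in KO_AOMDSS mice, against -5.38, -5.31 and -5.29 in KO_untreated mice, and at -2.25, -0.07 and -2.49 in WT_AOMDSS mice, against -5.89, -2.67 and -5.65 in WT_untreated mice. Its probe was well above background on 2 of 3 arrays of each untreated group. It therefore passed the filter only through the treated groups, where it was high. All 6 treated mice lay above all 6 untreated ones, as in 4.11% of all genes, and the mean difference was 3.32 ± 0.59 (adjusted p = 0.00305). C1qa and C1qc, which encode chains of the recognition protein C1q, rose by 2.43 ± 0.42 and 2.55 ± 0.38 (adjusted p = 0.0026 and 0.000932). With slide as a block the C1s1 and C1qa calls were lost (3.18 and 2.22, adjusted p = 0.121 and 0.0802). C1qc stayed called there, at 2.76 (adjusted p = 0.0483). The third chain, C1qb, did not pass the test, at -0.39 ± 0.24 in KO_AOMDSS mice against -0.61 ± 0.63 in KO_untreated mice and -0.46 ± 0.67 in WT_AOMDSS mice against -0.02 ± 0.27 in WT_untreated mice (mean ± SD, n = 3 each). Colec11, a lectin that starts the lectin route, had a fitted difference of -1.99 ± 0.63 (adjusted p = 0.0411), with 4 of 6 treated and 5 of 6 untreated arrays well above background, and 1.11 with slide as a block.

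Among receptors, 4 of 7 rose and 2 fell for the mean over both marrows, against 7.55% and 13.5% of all genes. C5ar2, the second C5a receptor, stood at -0.85, -1.04 and -1.67 in KO_AOMDSS mice, against -3.08, -4.58 and -4.80 in KO_untreated mice, and at -1.01, -1.02 and -0.92 in WT_AOMDSS mice, against -3.62, -3.78 and -4.49 in WT_untreated mice. It rose by 2.97 ± 0.48 with KO marrow and 2.98 ± 0.48 with WT marrow (adjusted p = 0.00495 and 0.00548), and it was called with slide as a block as well (3.30 and 4.39, adjusted p = 0.0027 and 0.0182). Itgam and Itgax, the alpha chains of complement receptors 3 and 4 and general markers of myeloid cells, rose by 2.70 ± 0.34 and 2.57 ± 0.25 for the mean (adjusted p = 0.000279 and 5.36e-05). Vsig4, a macrophage receptor for C3 fragments, was well above background on 1 of 6 treated arrays, against 5 of 6 untreated ones. With WT marrow it was not well above background in any treated mouse. Its fitted difference there was -2.95 (95% interval -5.17 to -0.73, adjusted p = 0.0687). The call came from the mean over both marrows (adjusted p = 0.0455), where its difference was 0.98 with slide as a block.

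Of the later and controlling steps, 3 of 3 tested terminal genes fell for the mean over both marrows, against 13.5% of all genes. C6 fell by 1.94 ± 0.45, Hc (which encodes C5) by 1.5 ± 0.43 and C8g by 0.85 ± 0.26 (adjusted p = 0.0114, 0.0294 and 0.0368). With KO marrow 0 of the 3 were called, and with WT marrow C6 and Hc were. C8a, C8b and C9 were not tested, because no probe of theirs passed the filter. None of the calls for the mean held with slide as a block, where the differences were -0.01, 0.16 and -0.77, and with normexp C6 and C8g stood at 0.07 and 0.42. Hepatocyte markers moved the same way (2 of 3 tested fell), and their part in these differences was not tested. Properdin (Cfp), which stabilises the alternative convertase, rose by 1.09 ± 0.32 for the mean (adjusted p = 0.0315). Of 10 regulators, Clu (clusterin) rose by 1.41 ± 0.44 for the mean (adjusted p = 0.04). Cd59b, which blocks the membrane attack complex, was called lower for the mean (adjusted p = 0.0261). It was well above background on 2 of 6 treated against 5 of 6 untreated arrays, and in no treated mouse with KO marrow. The fitted Cd59b difference with KO marrow was -1.48 (95% interval -3.02 to 0.07, adjusted p = 0.376). For the mean, the Cd59b difference was -0.06 with slide as a block and 0.52 with normexp. With slide as a block, 6 of the 34 rose for the mean (Cfp, C1qc, C5ar2, Cd93, Itgam and Itgax) and 0 fell.

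**Figure D4:**
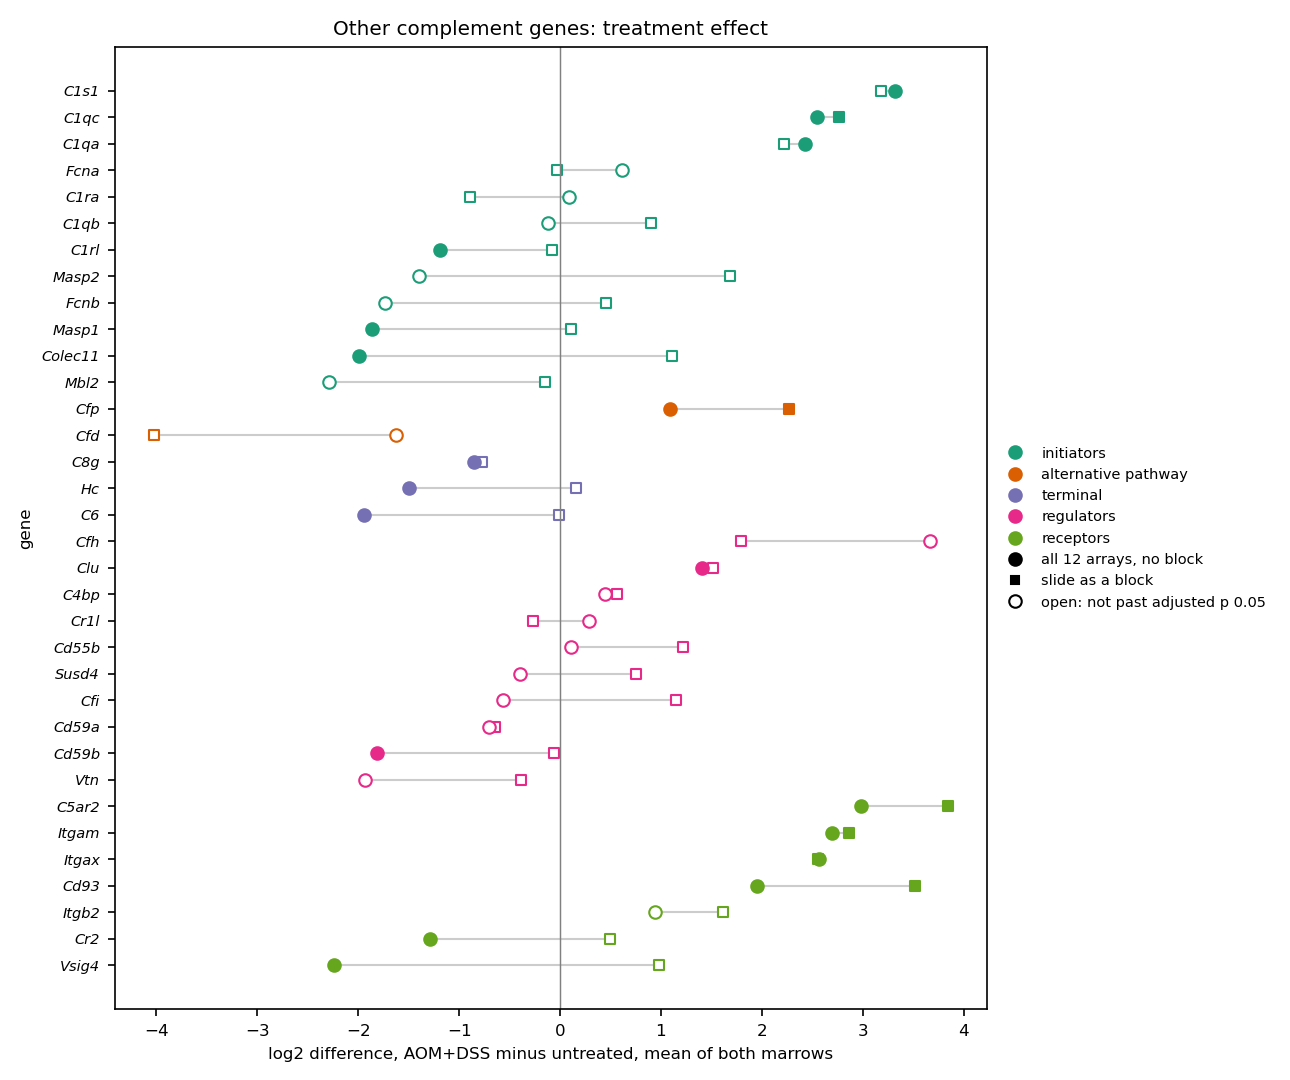
Treatment difference (log2, AOM+DSS minus untreated, mean over both marrows) of 34 other complement genes grouped by role; circles are the fit without a block and squares the fit with slide as a block, filled where the adjusted p was under 0.05. C1s1, C1qc, C1qa, C5ar2, Itgam and Itgax lie between 2.43 and 3.32 with circles filled, while the filled circles left of 0 have no filled square.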

How the data were processed

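Total RNA of 12 colon mucosa samples was labelled with Cy3, per the labels' protocols. The authors deposited scanner output of Agilent arrays (design 014868), read by Feature Extraction 10.7.3.1. The processed signals are linear intensity values from which background was already removed, per the file headers. A second deposited table held the authors' log2 group means of 2506 probes, by a rule that the labels do not state. For its 2 probes of these genes (C3 and Serping1), its values lay close to group means less each probe's median over the 12 arrays. For Serping1 in WT_untreated mice, for example, they were -0.74 and -0.72.

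Here (R 4.3.3, limma 3.58.1, data.table version 1.17.8), the log2 of processed intensity less its 75th percentile per array was taken over 43379 of 45018 spots. Control spots were left out and outlier spots set to missing. Accessions were matched to RefSeq gene names (24375 of 41174 probes). A probe was kept if well above background on all 3 arrays of a group (30219 were), and a gene was represented by its brightest kept probe. Means of the 4 groups were fitted in limma over 23747 genes with an intensity trend (8 residual and 4.9 prior degrees of freedom). Every adjusted p is limma's with Benjamini-Hochberg adjustment within its comparison (6 comparisons), over all genes of that fit. The exceptions were the second C2 probe, adjusted over all kept probes, and C5ar1, adjusted over all probes. A gene was called under 0.05. The number of arrays limits the precision. Labels do not say that mice sharing a replicate number share anything else. The deviations of same-numbered mice correlated between -0.4 and 0.48, with 7 of 18 pairs over 0.1, so numbers were not taken as pairs.

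The complement genes, the further lists, the markers and the alternatives were chosen with earlier results of these data known. All 8 genes are named in every comparison, and of further complement genes called ones, up to 4 per role by size, with Cd55b and C1qb named beside relatives after their values were seen. The alternatives were quantile normalization, normexp (offset 50), no filter, the mean of a gene's probes, slide, replicate number, array weights, fewer groups and single arrays left out. The normexp correction used the median, not the mean, spot intensity. Leaving out the 2 mice highest in smooth muscle genes was chosen after seeing the data. The fit was also run on simulated arrays without a slide effect, which cannot show how far the slides bear on the treatment calls.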

Additional observations from a re-analysis of the deposited data

How the results depend on the processing

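The main limits were the slides, which nearly followed treatment, the 3 mice per group, and probes near background, above all those of the receptors. A paired reading by replicate number was tried although the numbers did not pair the mice. With that replicate block 1 complement gene of 7 was called with KO marrow (3.01% of all genes) and 1 with WT marrow (C3, adjusted p = 0.0217, 9.81% of all genes). For the mean over both 3 were called (C3, C4b and Serping1, 19% of all genes), and the block changed no other call of the 7 genes. Besides, the count for the mean was 3 with quantile normalization (26.2% of all genes), normexp (10.1%) and array weights (37.3%). It was also 3 with the 2 mice high in smooth muscle genes left out (10.2%), and 0 with slide as a block (6.2%). With KO marrow it was 0 with slide as a block (7.26% of all genes) and with the mean of a gene's probes (2.99%). It was 2 with only the groups compared (4.14%) and 4 with array weights. With WT marrow it was 1 without the 2 mice high in smooth muscle genes (1.35%). Array weights, which ran from 0.042 to 8 and did not fully converge, called 35.7% of all genes with KO marrow and 37.3% for the mean. In untreated mice they called 5 of the 7 genes lower with KO marrow, where they called 49.1% of all genes. With single mice left out the count was 0 to 1 with KO marrow, 0 to 2 with WT marrow and 1 to 4 for the mean, and 0 in the other comparisons.

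Of the 34 further genes, 6 were called with KO marrow (3.15% of all genes), 12 with WT marrow (13.8%) and 18 for the mean (21%). With slide as a block 6 were called with KO marrow (7.26% of all genes), 1 with WT marrow (0.535%) and 6 for the mean (6.2%). Those with KO marrow included Cfp and Cd93, and no longer C1qa and C1s1. With normexp the counts with WT marrow and for the mean were 5 (3.6%) and 11 (10.1%). Without the 2 mice high in smooth muscle genes they were 5 (1.35%) and 9 (10.2%). With only the groups compared 7 were called with WT marrow (5.58% of all genes). With KO marrow 17 were called with array weights (35.7% of all genes) and 14 within slide 2 (26.4%). The slide 2 fit set 1 treated mouse (KO_AOMDSS 3), which has no spread of its own, against KO_untreated 2 and 3. Its count is therefore not read as a test result, and no conclusion is drawn from it. Array weights called 19 between the marrows in untreated mice (49.1% of all genes) and 8 in the difference of treatment effects (12%). With single mice left out the count was 4 to 7 with KO marrow, 2 to 21 with WT marrow, 8 to 27 for the mean and 0 to 5 between the marrows in untreated mice. The highest WT count, 21, was without WT_AOMDSS 3, the lowest, 2, without WT_AOMDSS 1, and the 5 between the marrows were without KO_untreated 1.

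Signs turned as follows, and the cause was not tested. For the treatment difference with WT marrow, C3ar1 was 0.29 with quantile normalization, 1.05 with normexp and 1.36 with slide as a block, C2 was -0.09 with normexp, -0.30 with slide as a block and -0.25 without the 2 mice high in smooth muscle genes, Cfb was -0.49 with slide as a block and -0.25 without those mice, Cd55 was 0.44 and 0.21 in the same settings, and C6 was 0.09 with normexp. With KO marrow Cfb was -0.19 with slide as a block. For the mean over both marrows Cfb was -0.34, Colec11 1.11, Vsig4 0.98 and Hc 0.16 with slide as a block, and Colec11 0.36, Vsig4 0.72, Cd59b 0.52, C6 0.07 and C8g 0.42 with normexp.

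For KO against WT marrow in treated mice, array weights gave C2 -0.81, Cfb -0.59 and Serping1 -1.30, normexp Serping1 -0.63, slide 2 alone C3 0.54, slide 3 alone Cfb -0.02, C3ar1 0.05 and Serping1 -0.71, and leaving out the 2 mice high in smooth muscle genes C3 0.17. In untreated mice Cfb was -0.01 with quantile normalization, -0.12 with slide as a block and within slide 1, and -0.10 without those 2 mice, and Serping1 was 0.46 with quantile normalization and 0.74 without those mice. In the difference of treatment effects Serping1 was -0.17 with quantile normalization, -0.29 with normexp and -0.90 with array weights, C3ar1 was -0.46 with normexp, and C3, C4b and Cfb were -0.21, -0.32 and -0.75 with array weights.

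With single mice left out, ranges that crossed 0 were as follows. For the treatment difference with WT marrow they were -0.30 to 0.59 for C2, -0.12 to 0.69 for Cfb, -1.04 to 0.39 for C3ar1 and -0.53 to 0.23 for Cd55, and for the mean -0.12 to 0.59 for C3ar1. For KO against WT marrow in treated mice they were -1.17 to 0.17 for C3, -0.21 to 0.98 for C2, -0.21 to 0.60 for Cfb, -0.48 to 0.15 for C3ar1 and -0.69 to 1.01 for Serping1, and in untreated mice -0.10 to 0.12 for Cfb and -0.77 to 0.74 for Serping1. In the difference of treatment effects they were -0.22 to 1.52 for C3, -0.24 to 0.57 for Cfb and -0.66 to 1.23 for Serping1.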
